A study of Mus musculus with 30 samples.

Results

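RNA polymerase II phosphorylated at serine 5 of its carboxy-terminal repeats (POLR2S5) was mapped by chromatin immunoprecipitation and sequencing in cells kept at low and at high oxygen. The 4 POLR2S5 libraries were taken by their antibody label from the 30 samples of the series. All came from NOS1+ N1E115 cells, a mouse neuroblastoma line labelled as expressing the neuronal nitric oxide synthase gene Nos1. One group, with 2 libraries, was cultured at 4% O2 for 3 days and the other, with 2 libraries, at 20% O2 for 3 days. No other treatment or allele separates the groups, and the labels name 1 cell line only. Whether a group's libraries stem from independent cultures is not stated, so p-values cover only the spread among these libraries, and that spread may be technical. Replicates 1 and 2 were sequenced on different flow cells, per the file headers, so a replicate number is called a round here and each round holds both O2 levels.

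Serine 5 of the repeated heptapeptide is phosphorylated mainly by the kinase CDK7 of the general factor TFIIH as the polymerase leaves the promoter. This form recruits the enzymes that cap the new transcript and is therefore densest at gene starts, where the polymerase often pauses. Further into the gene serine 2 becomes phosphorylated and serine 5 loses its phosphate. Low oxygen stabilises hypoxia-inducible factor (HIF), which binds short motifs near genes of glucose uptake, glycolysis and oxygen handling and recruits cofactors that start or release the polymerase there.

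The deposited data are islands, stretches of the genome called enriched by SICER, each with a count of reads. The 4% O2 libraries held 24635 and 20686 islands in rounds 1 and 2, and the 20% O2 libraries 23060 and 24164. Their reads summed to 10.98 and 12.01 M (mega) at 4% O2 and to 5.93 and 12.4 M at 20% O2, over 214, 242, 154 and 258 Mb. The 20% O2 library of round 1 stood apart from the other 3. It had the fewest island reads, the narrowest islands and the largest share of islands inside genes away from a start, 46.5% against 30.5% to 34.0%. Its Jaccard index in base pairs with the other libraries was 0.419 to 0.512, while the other 3 shared 0.630 to 0.659 among themselves. Reads were scaled by factors of 1.09 and 1.20 for the 4% O2 libraries and of 0.613 and 1.25 for the 20% O2 libraries. "Scaled reads" below are reads divided by these factors, and values within each round, or without the 20% O2 library of round 1, are given beside many of the results. Because cells were pooled, a lower signal in every cell and a signal in fewer cells cannot be told apart.

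The labelled cell type was checked against marker genes. Of 24 genes of sympathetic neuroblasts, 20, 21, 16 and 21 had an island within 1 kb of the start in the 4% O2 libraries of rounds 1 and 2 and the 20% O2 libraries of rounds 1 and 2. Among them were Th, which makes the first step to catecholamines, and the transcription factor Phox2a. Hand1, Ddc and Nos1 had none at the start in any library. The Nos1 gene body carried 8, 4, 9 and 5 islands in the same order. Of markers of other cell types, 3 of 7 astrocyte, 5 of 10 oligodendrocyte and Schwann cell, 3 of 10 macrophage, 1 of 8 endothelial and 3 of 9 fibroblast genes were called in at least 1 library. Of the defining oligodendrocyte genes, Mog, Mag, Olig1 and Olig2 had no island at the start. Markers with a region in all 4 libraries were 1 astrocyte, 4 oligodendrocyte and Schwann cell, 1 macrophage, 0 endothelial and 0 fibroblast genes, with log2 ratios of 4% to 20% O2 between -0.30 and 0.12.

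Islands were wide at gene starts and reached far into genes. The median island at a start was 8.2 and 10.8 kb wide at 4% O2 and 4.6 and 9 kb wide at 20% O2. This gave 9.5 ± 1.84 kb against 6.8 ± 3.11 kb (SD, n = 2 libraries per level, exact permutation p = 0.667, two-sided, where 0.333 is the smallest p that 2 against 2 libraries allow). Without the 20% O2 library of round 1 the ratio of the means was 1.06. The values of the levels overlapped, and the 4% to 20% ratio was 1.78 in round 1 and 1.20 in round 2. Islands elsewhere had medians of 3 and 3.8 kb against 3 and 4 kb. Gene starts took 72.4% and 78.9% of island reads at 4% O2 and 65.7% and 73.1% at 20% O2. In all, 12067 and 12414 against 10429 and 12657 of 21887 protein-coding genes had an island within 1 kb of the start.

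POLR2S5 lay further downstream at 4% O2 in round 1 and less so in round 2. For 7508 genes with a start called in all 4 libraries and a known strand, the island at the start reached a median of 6.98 and 9.09 kb downstream at 4% O2 and 2.88 and 7.41 kb at 20% O2. The median gene was covered over 72.2% and 85.5% of its length at 4% O2 and over 44.1% and 84.8% at 20% O2. In both rounds the reach was longer at 4% O2 for 3007 of these genes (40.1%) and shorter for 727 (9.68%). No test was made over genes, which share the libraries and the calling of islands. Upstream reach was 2.27 and 4.47 kb against 1.54 and 3.58 kb. Depth and the calling threshold act on island width, and their part in these lengths was not tested.

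**Figure D1:**
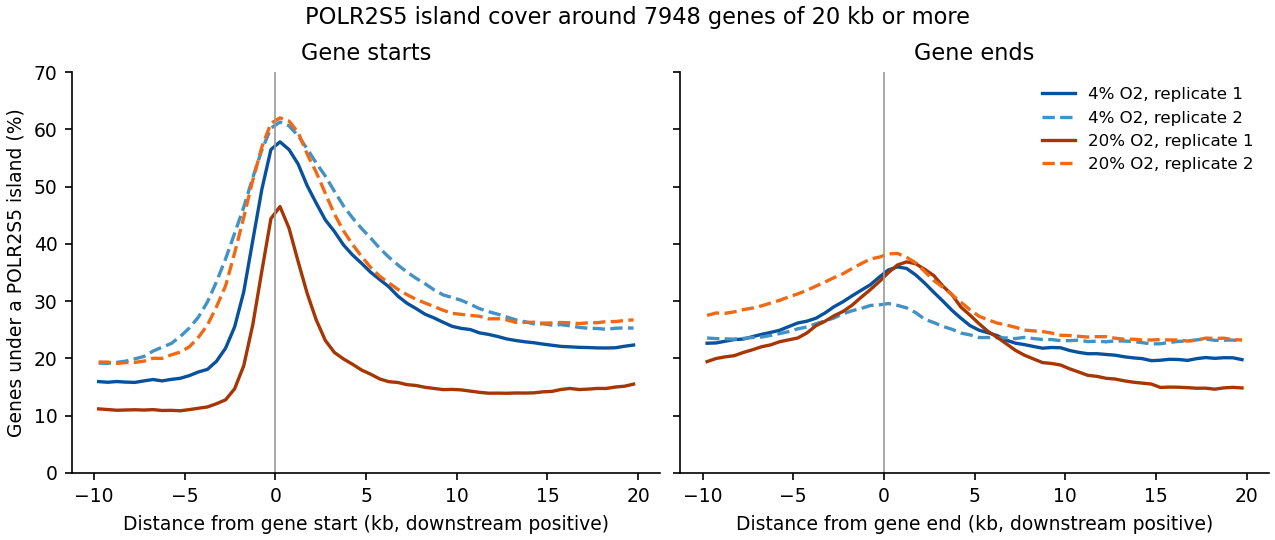
Share of 7948 genes of 20 kb or more that lay under a POLR2S5 island (percent, vertical axis) against distance from the gene start (left) and gene end (right) in kb, 1 line per library. Just inside the start, at 0.75 kb, 56.5% and 60.6% of genes were covered at 4% O2 and 42.7% and 61.5% at 20% O2, and at 9.75 kb 25.6% and 30.6% against 14.6% and 27.9%, so the 20% O2 library of round 1 is the low line.

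The curve of cover around starts and ends shows a sharp peak at the start and a second, lower rise past the gene end. At 0.75 kb past the end, 36.0% and 29.3% of the genes were under an island at 4% O2 and 36.3% and 38.3% at 20% O2. There the low line of the starts was no longer low, and both 4% O2 libraries lay below both 20% O2 libraries, whereas just inside the start the levels overlapped.

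Most islands overlapped an island of each library of the other O2 level, 58.2% to 89.2% of those of a 4% O2 library and 74.8% to 81.6% of those of a 20% O2 library. Islands of the 4 libraries merged into 27687 regions, of which 9933 (35.9%) had an island in every library. These shared regions had a median length of 13.8 kb and 7155 of them (72.0%) held a gene start. A further 5327 regions were found in 3 libraries, and 4325 of these lacked only the 20% O2 library of round 1. Regions found in both 4% O2 libraries and neither 20% O2 library numbered 517 (1.87%), and the reverse 415 (1.5%). Pairs of opposite levels had exclusive regions too, 562 in both round 1 libraries and 1460 in both round 2 libraries. The 4% O2 library of round 1 and the 20% O2 library of round 2 had 862, and the remaining pair 85. Both sets depended on single libraries, since leaving out 1 library gave 688 to 5059 and 776 to 3731 regions, and 688 and 2721 without the 20% O2 library of round 1.

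The level-specific regions mostly lay away from gene starts, with 6.19% (4% O2) and 12.8% (20% O2) at starts. This was so for regions not found in every library at large. Of all regions in 2 libraries 15.0% lay at starts, and of those in 1 library 5.35%. Of those of 4% O2, 32 lay at starts, 315 inside genes and 170 outside genes, with a median length of 3.2 kb. Of those of 20% O2, 53 lay at starts, 314 inside genes and 48 outside, with a median of 7.2 kb. Other marks were measured in the same cell line. H3K9ac, an acetylation of active promoters and enhancers, overlapped 69.1% to 73.5% of the 4% O2 regions in its 4 libraries and 20.0% to 23.4% of the 20% O2 regions, against 93.2% to 94.4% of shared regions. The serine 2 form (POLR2S2), which marks elongation, overlapped 33.8% and 32.5% (4% O2) and 9.48% and 16.1% (20% O2) of the 4% O2 regions. It overlapped 68.2%, 49.9%, 70.8% and 80.5% of the 20% O2 regions in the same order, and 82.9%, 89.9%, 55.4% and 78.3% of shared regions. Total polymerase (POLR2) overlapped 44.7%, 40.6%, 1.16% and 31.3% of the 4% O2 regions and 3.13%, 5.54%, 8.92% and 23.9% of the 20% O2 regions, against 73.3% to 96.2% of shared regions. These shares describe the libraries and were not tested.

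Few gene starts were called at 1 level only, 36 genes at 4% O2 (0.276% of 13061 genes called in any library) and 70 at 20% O2 (0.536%). The region of the 4% O2 set with the most reads lay at Nsg2, which encodes a neuronal endosomal protein, with 2884 and 2684 reads over 65.2 and 63.6 kb and no island at 20% O2. The region at Slc25a26, the mitochondrial carrier of S-adenosylmethionine, had 3445 reads in round 1 but 71 in round 2. Smaller ones lay at the chaperone gene Dnajb8 (351 and 383 reads), the potassium channel gene Kcnj12 (247 and 197 reads) and the synaptic scaffold gene Grip1 (171 and 189 reads). All of these starts carried H3K9ac in every library of both levels. POLR2 was called at Nsg2 and at Slc25a26 in 0 libraries at 4% O2 and 1 at 20% O2. At Kcnj12 and at Grip1 it was called in 2 and 0, and at Dnajb8 in 2 and 1. POLR2S2 was called at Nsg2 in 2 libraries at 4% O2 and 1 at 20% O2 and at Slc25a26 in 1 and 1, and not at the others. Among gene starts of the 20% O2 set the most reads lay at Fzd6, a Wnt receptor (590 and 1260 reads), Ptk2, the focal adhesion kinase (867 and 740 reads), and Sptbn1, a spectrin (272 and 1263 reads). The Ptk2 region had no H3K9ac peak at either level. A library with no island in a region is not known to have had no reads there.

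At shared regions no difference passed edgeR fitted without the replicate number as a block. With Benjamini-Hochberg adjustment over 9933 regions, 0 were higher and 0 lower at 4% O2 (0.0% each, smallest adjusted p = 0.496), while 288 (2.9%) had an unadjusted p under 0.05, 134 higher and 154 lower. DESeq2 called 7 regions higher (0.0705%) and 15 lower (0.151%). EdgeR with the replicate number as a block called 0 higher (0.0%) and 3 lower (0.0302%). With that block 1298 of the 9933 regions had an unadjusted p under 0.05, 583 higher and 715 lower, so the number of small p-values depended on the block. EdgeR's counts moved with single libraries: 45 higher and 5 lower when round 2 at 20% O2 was left out, 5 lower without round 1 at 4% O2, 2 lower without round 2 at 4% O2, and 0 of either without round 1 at 20% O2. The ratios of the rounds shared a sign at many regions, above 0 in both for 29.8% and below 0 in both for 32%. Scaled reads of the levels did not overlap at 15.3% (higher) and 15.4% (lower). At gene starts alone these shares were 32.5%, 29.1%, 16.4% and 14.8%, with a median log2 ratio of 0.02.

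Differences in reads went largely with differences in island length. Across the 9933 shared regions, which share the libraries, the log2 ratio of reads and that of island length correlated at r = 0.84. Lengths or log2 ratios per kb are therefore given for many of the regions below. The log2 ratio per kb is the edgeR ratio with island length as an offset, centred on all regions. It takes each library over its own islands, so where lengths differ it does not compare density over the same stretch. The calling threshold acts on both reads and length, and its part in this ratio was not tested. The division moved the median of all regions by -0.28 before centring. Read ratios of round 1 and round 2 correlated at r = 0.35 over the same regions.

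Among hypoxia genes Slc2a1, the glucose transporter GLUT1, had the highest ratio. Its region, chr4:119100801-119142000, had 1147 and 2118 scaled reads at 4% O2 and 287 and 413 at 20% O2. Both 4% O2 libraries lay above both 20% O2 libraries, at a log2 ratio of 2.22 ± 0.44 (SE, n = 2 per level). DESeq2 called it (adjusted p = 0.0051) and edgeR did not. At 4% O2 a single island ran from 5.14 or 7.94 kb before the start to 33.1 or 33.3 kb after it, past the end of the 28.6 kb gene. At 20% O2 the islands at the start were 1.2 and 7.6 kb wide, with a separate stretch of 1.6 and 3.2 kb inside the gene. Reads per kb of island were 32.6 and 61.9 against 48.9 and 47.7, so the ratio per kb was -0.14.

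P4ha1, Bnip3 and Pgk1 also had more scaled reads in both 4% O2 libraries than in either 20% O2 library. P4ha1 encodes the catalytic subunit of collagen prolyl hydroxylase, an enzyme that itself uses oxygen. Its region, chr10:59317801-59382000, had 4128 and 5384 against 1329 and 2156 scaled reads, a log2 ratio of 1.45 ± 0.34 (SE, n = 2 per level). Here density differed too, at 74.0 and 101 reads per kb against 28.5 and 41.9, and the ratio per kb was 1.22. Bnip3 encodes a receptor of mitophagy, and its region also holds the starts of Mapk1ip1 and Ppp2r2d. It had 3212 and 4074 against 1358 and 1910 scaled reads over 74.4, 74.8, 31.8 and 63.6 kb, with a log2 ratio of 1.16 ± 0.31 (SE) and 0.73 per kb. Stc2, a secreted glycoprotein often induced by hypoxia, went the other way, with 546 and 428 against 1177 and 719 scaled reads and a log2 ratio of -0.96 ± 0.40 (SE). Without the 20% O2 library of round 1 the log2 ratios were 1.98 at Slc2a1, 1.14 at P4ha1, 0.93 at Bnip3, 0.83 at Pgk1 and -0.56 at Stc2. Of these 5 regions only Slc2a1 passed DESeq2, and none passed edgeR.

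The map of islands shows how far each gene was covered in each library and not how dense the reads were. Bnip3 differed in both. At P4ha1 density differed in both rounds, while island length differed in round 1 (60.6 kb at 4% O2 against 28.6 kb) and not in round 2 (64 against 64.2 kb). The promoters of the 5 genes are printed because HIF binds a short core motif, ACGTG or GCGTG. Each window holds 250 bases before a start and 50 after it, from RefSeq (GRCm38.p6). For P4ha1 that start lies inside the outer end of the gene, from which reach and the map are counted. Capitals mark every match on either strand, where CACGT and CACGC are the motif on the other strand, and CACGTG is a match on both. The windows are chr4:119108495-119108794 (plus strand) for Slc2a1, chr10:59323046-59323345 (plus strand) for P4ha1, chr7:138909457-138909756 (minus strand) for Bnip3, chrX:106186850-106187149 (plus strand) for Pgk1 and chr11:31370012-31370311 (minus strand) for Stc2.
Slc2a1 promoter: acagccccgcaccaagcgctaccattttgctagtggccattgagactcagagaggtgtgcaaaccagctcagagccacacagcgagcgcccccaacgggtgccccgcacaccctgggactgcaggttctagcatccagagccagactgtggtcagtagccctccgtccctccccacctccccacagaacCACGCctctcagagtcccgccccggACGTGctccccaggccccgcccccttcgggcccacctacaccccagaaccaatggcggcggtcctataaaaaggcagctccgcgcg
P4ha1 promoter: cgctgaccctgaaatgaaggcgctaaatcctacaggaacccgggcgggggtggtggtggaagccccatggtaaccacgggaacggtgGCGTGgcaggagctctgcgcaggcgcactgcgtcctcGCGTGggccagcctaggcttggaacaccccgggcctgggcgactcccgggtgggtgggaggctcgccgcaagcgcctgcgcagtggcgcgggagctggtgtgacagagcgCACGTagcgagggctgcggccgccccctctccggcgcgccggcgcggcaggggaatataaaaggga
Bnip3 promoter: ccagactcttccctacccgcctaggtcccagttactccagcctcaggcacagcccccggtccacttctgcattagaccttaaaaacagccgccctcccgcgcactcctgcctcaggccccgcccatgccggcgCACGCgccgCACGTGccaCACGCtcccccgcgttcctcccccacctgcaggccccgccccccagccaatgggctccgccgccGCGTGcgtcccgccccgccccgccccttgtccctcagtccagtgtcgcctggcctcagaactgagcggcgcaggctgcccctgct
Pgk1 promoter: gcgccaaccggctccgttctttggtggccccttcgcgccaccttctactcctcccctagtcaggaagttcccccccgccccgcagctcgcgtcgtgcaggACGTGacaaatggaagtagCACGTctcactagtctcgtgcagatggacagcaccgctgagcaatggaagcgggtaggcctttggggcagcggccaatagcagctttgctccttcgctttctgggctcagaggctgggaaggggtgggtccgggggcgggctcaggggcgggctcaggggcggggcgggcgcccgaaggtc
Stc2 promoter: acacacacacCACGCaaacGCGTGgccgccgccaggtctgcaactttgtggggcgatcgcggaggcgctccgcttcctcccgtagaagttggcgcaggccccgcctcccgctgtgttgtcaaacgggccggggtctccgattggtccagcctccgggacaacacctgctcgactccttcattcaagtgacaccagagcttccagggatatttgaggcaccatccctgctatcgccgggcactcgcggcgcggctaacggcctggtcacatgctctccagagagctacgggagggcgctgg

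Slc2a1 had 2 matches, P4ha1 3, Bnip3 5, Pgk1 2 and Stc2 2, so that the gene with lower values at 4% O2 held the motif as well. In Slc2a1 the ACGTG match began 36 bases before the start, and in Pgk1 ACGTG and its reverse CACGT began 150 and 131 bases before it. Stc2 held only the GCGTG form. The motif is common, being present in 49.2% of 17492 windows and in 64.1% of the 8718 windows of genes with a shared region. It was found in 19 of 25 windows of the glycolysis list (76.0%) and in 26 of 33 windows of other HIF targets (78.8%). The ACGTG form was found in 12 (48.0%) and 19 (57.6%) of these and in 26.2% of windows of genes with a shared region. A match describes letters in the window and does not show binding.

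Genes of glucose uptake and glycolysis had higher values at 4% O2 on the whole, in reads and per kb. Of 26 genes, 22 had a shared region and 1 of these, Slc2a1, passed a test (DESeq2). In this and the other lists a region can also hold starts of genes outside the list, and its reads are then not told apart by gene. The median log2 ratio was 0.37, with 0.26 in round 1 and 0.47 in round 2, and it was also 0.37 per kb, against 0.02 over all gene-start regions. It was 0.48 without the 20% O2 library of round 1. In both rounds 16 of the 22 were above 0 and 2 below. Scaled reads of the levels did not overlap for 15 higher and 1 lower region, where the share of all gene-start regions was 16.4% and 14.8%. Hk2 and Pdk1 had a start island in every library but the 20% O2 library of round 1, and Ldhb and Pdk3 had none in any library.

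At Pgk1, which makes the first ATP of glycolysis, the 4% O2 libraries had 1862 and 2915 scaled reads and the 20% O2 libraries 1293 and 1347. Its reads per kb were 70.7 and 113 against 30.5 and 58.3, and the log2 ratio was 0.86 ± 0.32 (SE) in reads and 0.97 per kb. Gpi1, the isomerase of the second step of the pathway, had 2237 and 3087 against 1605 and 1349 scaled reads and a log2 ratio of 0.85 ± 0.30 (SE). The Gpi1 region also holds the start of Garre1. The liver-type phosphofructokinase gene Pfkl had 2798 and 5069 against 2208 and 2176 scaled reads, with a ratio of 0.84 ± 0.35 (SE). Its region also holds the starts of Trpm2 and Cfap410. Pkm, the pyruvate kinase of the last step, had 3489 and 3418 against 2583 and 1737 scaled reads, and Ldha, which turns pyruvate into lactate, 2878 and 2476 against 2164 and 1619. The Pkm region also holds the start of Gramd2. At these 5 genes the levels did not overlap, the islands were of similar length and the ratio per kb was 0.71 to 1.004. The lowest members were Pfkm, the muscle phosphofructokinase, at -0.44 ± 0.37 and the regulator Pfkfb2 at -0.43 ± 0.38 (SE), in regions that also hold the starts of Senp1 and of Yod1. Per kb they stood at 0.12 and 0.14. The outer start of Pfkfb2 had an island in 1 library only and that of Yod1 in all 4.

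Other HIF targets had a median log2 ratio of 0.52, with 0.43 in round 1 and 0.46 in round 2, over 35 of 43 genes. Here 23 were above 0 in both rounds and 3 below, and the levels did not overlap for 18 higher and 1 lower region, against 16.4% and 14.8% of all gene-start regions. The median was 0.18 per kb, and in reads 0.40 without the 20% O2 library of round 1 and 0.36 without the 4% O2 library of round 2. None of the 35 passed edgeR or DESeq2. The highest was Zfp395, a zinc-finger gene whose region also holds the start of Pnoc, with 1079 and 1098 against 101 and 483 scaled reads and a log2 ratio of 1.89 ± 0.71 (SE). That ratio was 3.42 in round 1 and 1.19 in round 2. Per kb Zfp395 stood at 0.35. P4ha2, the sister of P4ha1, had 2556 and 3899 against 779 and 2051 scaled reads, with ratios of 1.71 and 0.93 in the rounds and 0.65 per kb. Tfrc, the transferrin receptor, had 1808 and 2539 against 696 and 1310, with 1.38 and 0.95 in the rounds and 0.81 per kb. Ak4, a mitochondrial adenylate kinase, had 262 and 411 against 111 and 215, and Insig2, a brake on sterol synthesis, 800.4 and 1095 against 329 and 646. Both had longer islands at 4% O2, and per kb their ratios turned to -0.59 and -0.36. Vegfa, the angiogenic growth factor, had 3643 and 2009 against 3615 and 2257 scaled reads, so the levels overlapped (-0.05 ± 0.40, SE). Its promoter window held 0 matches to the core motif. Adm and Sap30 had a start island in every library but the 20% O2 library of round 1, Car9 and Epo had one in 1 library, and Lox, Stc1 and Rora had none.

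**Figure D2:**
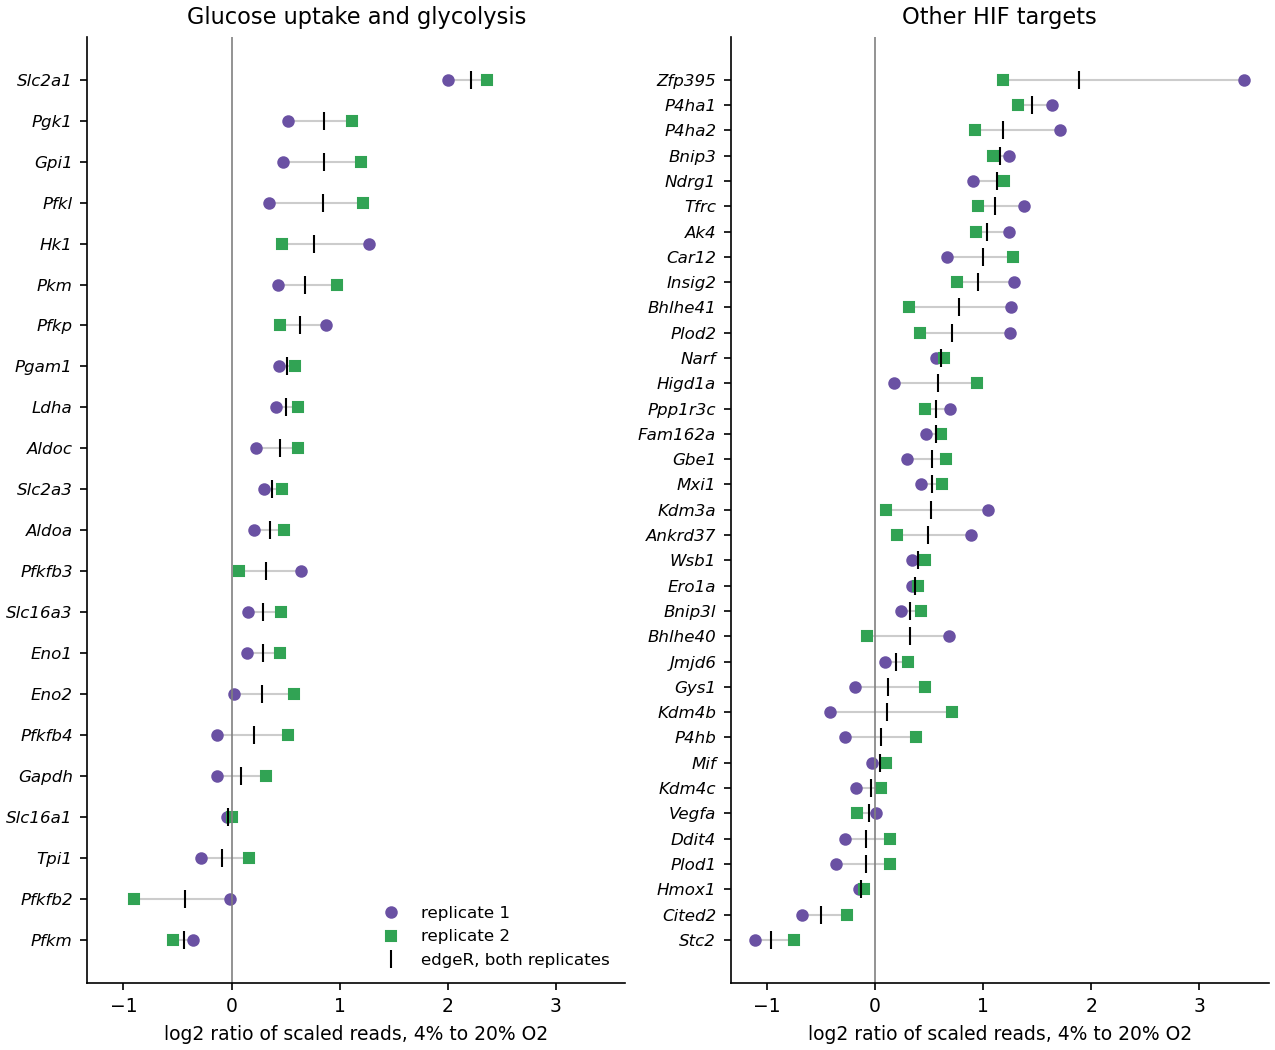
Log2 ratio of scaled POLR2S5 reads, 4% to 20% O2 (horizontal axis), for each gene of 2 lists with a region in all 4 libraries, within replicate 1 (circles), within replicate 2 (squares) and fitted over both (bars). Of the glycolysis genes 16 of 22 lie above 0 in both replicates, and of the other HIF targets 23 of 35, with Slc2a1 and Zfp395 at the top and Pfkm and Stc2 at the bottom.

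The plot of within-round ratios shows that most of these genes held their sign in both rounds, while the size could differ, as at Zfp395. Shares for all gene-start regions were 32.5% above 0 and 29.1% below 0 in both rounds.

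Among genes of the HIF subunits and the oxygen sensor, 14 of 18 had a shared region, with a median log2 ratio of 0.16, 8 above 0 in both rounds and 1 below, and none passed edgeR or DESeq2. Hif1a, the oxygen-regulated subunit, had 2079.8 and 1656 against 936 and 1525 scaled reads (0.60 ± 0.35, SE), with ratios of 1.15 in round 1 and 0.12 in round 2. Arnt, its constant partner, had 1893 and 1926 against 50.6 and 1086, a ratio of 1.74 ± 1.13 (SE) that was 5.23 in round 1 and 0.83 in round 2. Without the 20% O2 library of round 1 it was 0.81. Egln3 and Egln1 encode the prolyl hydroxylases that mark HIF for degradation and are themselves HIF targets. Egln3 had 909 and 1729 against 70.1 and 1282 scaled reads, where the levels overlapped. Egln1 had 804 and 1016 against 672 and 498, with no overlap and a ratio of 0.64 ± 0.36 (SE). Per kb these 2 ratios were -0.07 and -0.27. Epas1 and Arnt2 had no island at the start.

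Outside these lists, the highest ratios at gene starts went with long islands at 4% O2. By the rule for named regions 2138 gene-start regions qualified, 1167 higher and 971 lower. The highest was at Adam9 and Adam32, genes of membrane metalloproteases, with 738 and 1376 against 215 and 170.0 scaled reads over 30.4, 49.8, 7.2 and 9.2 kb, a log2 ratio of 2.46 ± 0.45 (SE, DESeq2 adjusted p = 0.00084) and 0.42 per kb. Rlf, a zinc-finger gene, had 742 and 1063 against 109 and 236 scaled reads (2.38 ± 0.50, SE, DESeq2 adjusted p = 0.0051), and per kb -0.79. Tmod3, an actin-capping tropomodulin, and Selenbp1, a methanethiol oxidase, had ratios of 2.11 each and were called by DESeq2 as well, with -0.73 and -0.53 per kb. Cox4i2 is the subunit of cytochrome oxidase used in low oxygen. It had 281 and 315 against 97.8 and 52.9 scaled reads, over 9 and 9.6 kb against 2 and 2 kb (1.996 ± 0.48, SE), and 0.10 per kb. The others were Inpp1 (2.20), Golph3l (2.16), Rnf217 (1.99) and Brwd3 (1.91), of which the first 3 turned to between -0.87 and -0.23 per kb. In the rounds Inpp1 stood at 3.92 and 1.38 and Golph3l at 3.03 and 1.84.

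**Figure D3:**
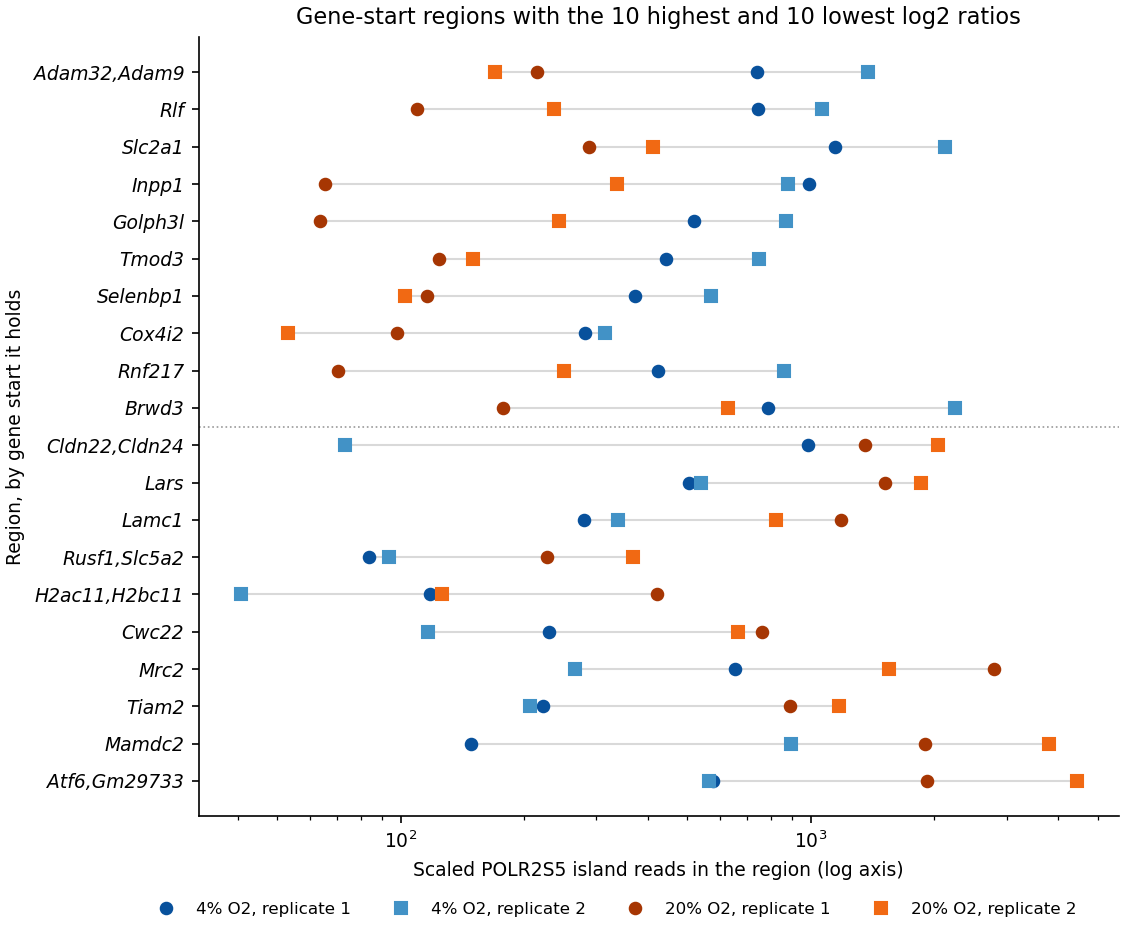
Scaled POLR2S5 island reads (log axis) in each library at the gene-start regions with the 10 highest (above the dotted line) and 10 lowest log2 ratios. By the rule of choice the levels do not overlap in any of them. At Slc2a1 the 4% O2 libraries lie at 1147 and 2118 and the 20% O2 libraries at 287 and 413, and at Atf6 the order is the reverse.

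The plot of the 20 chosen regions shows 4% O2 libraries on the right in the upper set and on the left in the lower set, which the choice fixed. The lowest ratio was at Atf6, a transcription factor that senses stress in the endoplasmic reticulum, with 578 and 565 against 1916 and 4454 scaled reads over 11.6, 10.2, 49.6 and 157.2 kb. Its log2 ratio was -2.48 ± 0.45 (SE, DESeq2 adjusted p = 0.0012), and per kb 0.94. The Atf6 region also holds the start of Gm29733, which had an island in both 20% O2 libraries and in neither 4% O2 library. Tiam2, an activator of the GTPase Rac, had 222 and 207 against 890.3 and 1173 scaled reads (-2.27 ± 0.37, SE, DESeq2 adjusted p = 0.00012) and -0.18 per kb. That region lies inside the gene at later annotated starts of Tiam2, and also holds the start of Cldn20. Mrc2, a collagen receptor, had 653 and 266 against 2800.0 and 1547 (-2.24 ± 0.54, SE) and 0.14 per kb. Cwc22, a spliceosome factor, had -2.04 and 0.35 per kb, and Lamc1, a laminin chain, -1.70 and -0.03 per kb. DESeq2 called these too, and also Lars at -1.69. Mamdc2 (-2.45), a region of the histone genes H2ac11, H2bc11 and H4c9 (-1.78), Slc5a2 with Rusf1 (-1.75) and Cldn22 with Cldn24 (-1.68) passed no test. At Cldn22 the round 1 libraries were close, at 986 against 1358 scaled reads, while round 2 had 73.1 against 2039.

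The lower regions with the smallest adjusted p lay inside genes, away from starts. All 3 regions called by edgeR with the replicate block were of this kind, and DESeq2 placed 7 of its 15 lower regions and 1 of its 7 higher ones inside genes, where 13.2% of all shared regions lay. In Snd1, which encodes a nuclease of the silencing complex, chr6:28842201-28911400 held 84 and 43 reads over 1.4 and 1 kb at 4% O2 and 1540 and 1728 reads over 50.6 and 60 kb at 20% O2. The log2 ratio was -5.11 ± 0.58 (SE), with an adjusted p = 0.0125 in edgeR with the block and 1.6e-16 in DESeq2. At 4% O2 only short islands were called inside a stretch that was nearly covered at 20% O2, and per kb the ratio was 0.67. POLR2S2 islands that touch the stretch held 678 reads in round 1 at 4% O2, where none was called in round 2, against 2045 and 2384 at 20% O2. POLR2 islands held 68 and 81 reads at 4% O2, and at 20% O2 none was called in round 1 and 124 reads were held in round 2. These islands may extend past the stretch.

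In Dapk1, a kinase gene of cell death pathways, chr13:60711201-60765400 held 114 and 94 reads against 953 and 1521, over 4 and 4 kb against 34.8 and 53.8 kb. The ratio was -3.92 ± 0.41 (SE, adjusted p = 0.0309 in edgeR with the block and 2.3e-15 in DESeq2), and -0.23 per kb. POLR2S2 did not follow the same order there, with 624 and 3899 reads at 4% O2 and 1337 and 1633 at 20% O2. In Tmem33, a gene of the endoplasmic reticulum, chr5:67276801-67301600 held 59 and 38 reads over 2.6 and 1.4 kb against 367 and 627 over 19.2 and 24.8 kb (-3.68 ± 0.47, SE, adjusted p = 0.0453 with the block). Per kb the ratio was 0.05. H3K9ac had no peak in the Tmem33 stretch in any library. The Snd1 stretch held 18 and 23 H3K9ac peaks at 4% O2 and 17 and 29 at 20% O2, and the Dapk1 stretch 5 and 5 against 4 and 4. At Tmem33 POLR2S2 islands went the other way from POLR2S5, with 1033 and 1923 reads at 4% O2 against 382 and 670 at 20% O2. POLR2 had an island in 1 library of each level, with 927 reads in round 2 at 4% O2 and 81 in round 1 at 20% O2. In Fndc3a, chr14:72624601-72646400 held 74 and 80 reads against 382 and 588 (-3.02 ± 0.40, SE), which DESeq2 called (adjusted p = 1.1e-07) and the block did not (0.0809). Without the 20% O2 library of round 1 the ratios were -4.62 in Snd1, -3.74 in Dapk1, -3.55 in Tmem33 and -2.81 in Fndc3a. Shared regions inside genes had a median log2 ratio of -0.14 and those outside genes -0.11.

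The genes of the machinery that writes and reads the serine 5 mark were examined next. Of 23 genes of repeat kinases, capping enzymes and phosphatases, 20 had a shared region, with a median log2 ratio of 0.02, 5 above 0 in both rounds and 1 below. Cdk7, the kinase of TFIIH, had 3247 and 2864 against 3589 and 2429 scaled reads in a region shared with Mrps36, and the levels overlapped (0.02 ± 0.30, SE). Its partner cyclin Ccnh had 426 and 477 against 448 and 1510.2 scaled reads (-1.12 ± 0.59, SE), which rested on the 20% O2 library of round 2: without it the ratio was 0.037. The third subunit, Mnat1, had 483 and 382 against 256 and 351 (0.51 ± 0.38, SE), and -0.38 per kb. The highest was Rprd1b, which binds the phosphorylated repeats, at 0.76 ± 0.39 (SE), in a region that also holds the start of Tti1. Among 20 pausing and elongation genes the median was 0.02 and the lowest was Tcea1, the factor that restarts arrested polymerase, with 1544 and 1517 against 3744 and 2748 scaled reads (-1.08 ± 0.29, SE), and -0.29 per kb. That region also holds the starts of Lypla1 and Rgs20. All 13 polymerase subunit genes had a shared region, with a median of 0.16 and a range from -0.61 at Polr2m to 0.42 at Polr2d. The Polr2d region also holds the start of Ammecr1l. None of these genes passed edgeR or DESeq2.

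Of the remaining lists, cholesterol synthesis stood at a median of 0.33 (0.28 and 0.43 in the rounds) over 20 regions, 15 above 0 in both rounds and 1 below, and at 0.28 per kb. Sc5d, which makes a late desaturation, had 704 and 618 against 295 and 429 scaled reads, and the lowest, Hsd17b7, had 210.0 and 408 against 716 and 568. Without the 4% O2 library of round 2 the list median was 0.11. Cytosolic ribosomal protein genes had a median of -0.33 over 56 regions, -0.49 in round 1 and -0.01 in round 2, with 28 below 0 in both rounds and 6 above. This value rested on the 20% O2 library of round 1, since without it the median was 0.10, and per kb it was -0.04. Rps12, of the small subunit, was lowest, with 676 and 457 against 1668 and 701 scaled reads.

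The histone demethylase, TET and Polycomb list had a median of 0.11 over 24 regions. Its highest member was Kdm2a, a demethylase of CpG islands, with 1025 and 939 against 440.3 and 469 scaled reads (1.11 ± 0.33, SE), and -0.03 per kb. Oxidative phosphorylation (42 regions) had -0.01 (0.07 per kb), the unfolded protein response (23) 0.00, immediate early genes (21) 0.02 and p53 targets and apoptosis (23) 0.09. In these lists Chac1, a glutathione-degrading enzyme induced by ATF4, had 1033 and 735 against 2505 and 1705 scaled reads (-1.25 ± 0.35, SE), and 0.22 per kb. Cycs, cytochrome c, had 498 and 364 against 869 and 660.1, and the apoptosis inhibitor Bcl2 359 and 233 against 551 and 566. Myc had 1780.0 and 930 against 2423 and 1372, where the levels overlapped. Nitric oxide signalling genes had a median of 0.14 over 19 regions. Pde10a, a cyclic nucleotide phosphodiesterase, was the highest there, with 2120.3 and 2730.4 against 437 and 926 scaled reads over 58.4, 80.4, 5.4 and 20 kb (1.83 ± 0.43, SE), and -0.53 per kb. Neuroblast markers had a median of -0.19 over 18 regions and of 0.11 per kb, so the sign turned. Their ratios in reads ran from -1.63 at Stmn2, a neuronal regulator of microtubules, to 0.52 at Th. In the 14 pathway lists DESeq2 called Slc2a1 and Atf6, and edgeR called no member with or without the block.

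**Figure D4:**
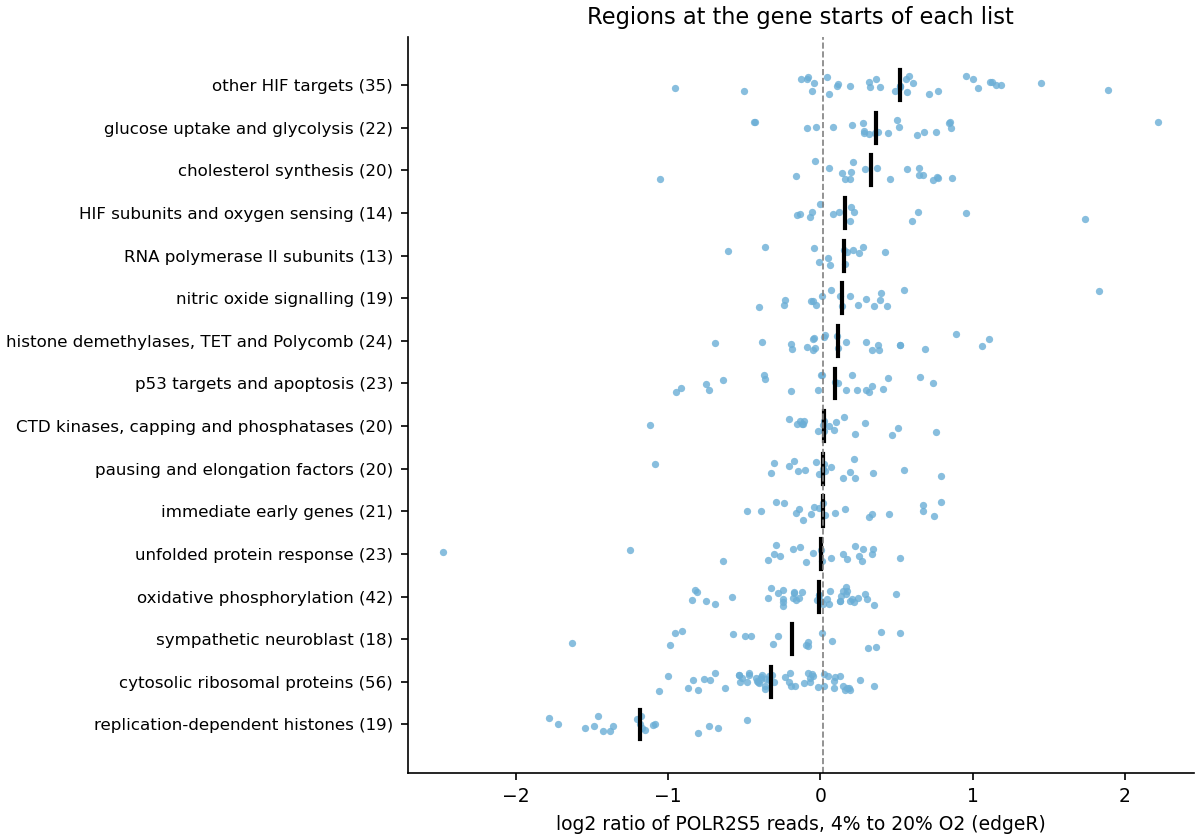
Log2 ratio of POLR2S5 reads, 4% to 20% O2, at the regions of each gene list (points, number of regions in brackets), with the list median as a black bar and the median of all gene-start regions, 0.02, as a dashed line. Medians of other HIF targets (0.52), glycolysis (0.37) and cholesterol synthesis (0.33) are the highest, those of ribosomal proteins (-0.33) and of replication-dependent histones (-1.19), a list added after its values were seen, the lowest.

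Total polymerase and the serine 2 form were measured in the same cell line, and the response of POLR2S5 was tested against theirs. Over 6956 regions with an island in all 8 libraries, 0 differed from POLR2 in edgeR (0.0%, smallest adjusted p = 0.244, 21 at an unadjusted p under 0.05) and 0 with the block. DESeq2 called 1 (0.0144%), the Dapk1 region, where the POLR2S5 ratios were -3.82 and -4.05 in the rounds and those of POLR2 0.39 and -0.47. At Slc2a1 the ratios were 2.07 and 2.27 for POLR2S5 and 1.69 and 1.76 for POLR2, a difference of 0.42 ± 0.78 (SE). At Bnip3 they were 1.31 and 1.01 against 2.18 and 1.14, a difference of -0.43 ± 0.62 (SE).

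Against POLR2S2, 0 of 4873 regions differed in edgeR (0.0%, smallest adjusted p = 0.9998, 54 at an unadjusted p under 0.05) and 0 with the block. DESeq2 called 5 (0.103%), all with POLR2S5 lower relative to POLR2S2. At Gng2, a G protein subunit, POLR2S5 stood at 0.26 and -0.03 in the rounds and POLR2S2 at 3.37 and 2.92. Its POLR2S5 reads were 736 and 553 against 370 and 561, and its POLR2S2 reads 994 and 1364 against 47 and 104. The nucleoporin gene Nup35 and the region of Aunip and Paqr7 had the same form, with POLR2S2 ratios of 2.10 and 1.84, and of 2.30 and 2.41. The other 2 regions lay in Fndc3a. At P4ha1 POLR2S5 stood at 1.72 and 1.27 and POLR2S2 at 2.28 and 1.42, a difference of -0.27 ± 0.63 (SE), and at Pgk1 the difference was -0.43 ± 0.47 (SE). These tests hold the antibodies as separate libraries of the same labels, and whether they came from the same cultures is not stated.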

How the data were processed

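POLR2S5 islands of 4 libraries were analysed, with those of POLR2, POLR2S2 and H3K9ac at the same O2 levels for comparison. BWA, Picard, SICER, MACS2 and build mm10 are named per the submitters' processing notes, with versions not given in the sources used here. The deposited SICER lists hold, in a column with no name, whole numbers that were read as the authors' unscaled count of reads in each island. The deposited MACS2 lists for H3K9ac end in a −log10 value, which was not used; only peak positions were. Replicate 2 lists of the polymerase forms equalled copies deposited beside replicate 1 and were counted once. Library depth is unknown from these files, so no counting interval is given. There were 0 further columns of sample values.

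Islands were merged where they overlapped by 1 bp. Reads per region were compared over regions present in all 4 libraries with edgeR's quasi-likelihood test (edgeR 4.0.16, R 4.3.3, TMM scaling, Benjamini-Hochberg over all regions, adjusted p of 0.05). DESeq2 1.42.0 and a replicate block were alternatives. Only edgeR's test without the block was run on simulated counts, with the dispersion set and not estimated from these libraries. DESeq2, the block and the interaction fits were not simulated. Interactions of antibody and O2 level were fitted over 8 libraries. Library values had an exact permutation test. A gene start was a window of 1 kb to each side of the start in RefSeq (GRCm38.p6) for the 17492 of 21887 protein-coding genes (79.9%) whose strand and start the promoter table gives, and both gene ends for the rest. Each start in that table and the gene's outer end counted as a start, while reach and cover were measured from the outer end alone. Exons and introns were not told apart. Python 3.11.15, numpy 2.4.6, pandas 2.3.3 and matplotlib 3.10.9 were used.

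The members, lists and tests were chosen with earlier results of these data known. Named regions were the 10 highest and 10 lowest at gene starts with a mean of at least 100 reads, 1 sign in both rounds and no overlap of the levels; up to 5 per direction and fit past adjusted p 0.05; in each list the 2 highest and 2 lowest; the 8 with most reads at starts called at 1 level; and members of the hypoxia and repeat kinase lists. Up to 5 regions per interaction and direction were named. Gene lists are described by counts and medians, with no test.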

Additional observations from a re-analysis of the deposited data

How the results depend on the processing

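Same-numbered libraries share a flow cell, per the file headers, but no label ties a number to a shared culture or day, so the block was kept as an alternative. They deviated together at r = 0.55 over 9933 regions with 2 pairs. With the replicate block edgeR called 3 regions lower and 0 higher, DESeq2 called 15 and 7, and leaving out 1 library gave 0 to 5 and 0 to 45. Of 162 alternatives to the main counts, medians and ratios, 123 stayed within a set margin of the main value. For counts the margin was a fixed fold. For ratios and medians it was the SD between the rounds, which widens where the rounds disagree, so staying within it does not show stability. The ratio of island reads, 1.26, counted as unmoved with rounds at 1.85 and 0.971. Regions at 4% O2 only numbered 257 with islands of at least 100 reads and 688 to 5059 without 1 library. Those at 20% O2 only numbered 179 and 776 to 3731.

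Leaving out 1 library put the 4% to 20% ratio of island reads at 0.929 to 1.94, of covered length at 0.884 to 1.48, of median width at 0.930 to 1.44 and of width at gene starts at 1.06 to 2.07. It put that of the share of islands at starts at 0.995 to 1.12 and inside genes at 0.693 to 0.997. With islands of at least 100 reads the ratio of median width was 1.09 and that of the share at starts 1.005. The median of other HIF targets was 0.49 with total island reads, 0.18 per kb and 0.36 to 0.54 without 1 library. That of cholesterol synthesis was 0.11 to 0.48 and that of ribosomal proteins -0.55 to 0.10. DESeq2 called 1 and 5 regions where the 4% to 20% ratio of POLR2S5 was lower than that of POLR2 and of POLR2S2.

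Per kb of island 24 of 57 named regions turned: Slc2a1 -0.14, Ak4 -0.59, Insig2 -0.36, Vegfa 0.18, Egln1 -0.27, Egln3 -0.074, Ccnh 0.44, Mnat1 -0.38, Sc5d -0.15, Hsd17b7 0.19, Atf6 0.94, Chac1 0.22, Pde10a -0.53, Rlf -0.79, Inpp1 -0.49, Golph3l -0.87, Tmod3 -0.73, Selenbp1 -0.53, Rnf217 -0.23, Mrc2 0.14, Cwc22 0.35, Slc5a2 0.029, Snd1 0.67 and Tmem33 0.046. Cdk7 turned to -0.018 with total island reads and to -0.07 and -0.20 without 1 library, Ccnh ranged from -1.74 to 0.037, and Vegfa turned to 0.32 and 0.33; the cause was not tested. Testing regions in at least 2 libraries moved the median of all regions from -0.01 to 0.15 and called 0. Only reads in called islands are known, so a difference below the calling threshold was not detectable. For the same reason a turn in sign per kb is not a difference in density over the same stretch.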

Other observations

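POLR2S5 at the genes of replication-dependent histones, which are transcribed mainly in the phase of DNA synthesis, had lower values at 4% O2. The list was added after these values were seen, so no test is given. Of 63 genes 41 lay in 19 regions present in all 4 libraries, and the ratio was below 0 in both rounds at 19 of 19, from -1.78 to -0.48, where the share of all gene-start regions was 29.1%. Scaled reads of the levels did not overlap at 8 of the 19, all lower at 4% O2, against 14.8% of all gene-start regions. The median log2 ratio was -1.19, with -1.30 in round 1 and -1.07 in round 2, and -0.53 per kb. Single libraries moved it: it was -1.89 without the 4% O2 library of round 1, -0.82 and -0.34 without the 4% O2 library of round 2 and the 20% O2 library of round 1, and -1.77 without the 20% O2 library of round 2. At H1f5 and H3c11, a linker and a core histone gene in 1 region, the 4% O2 libraries had 416 and 297 reads and the 20% O2 libraries 812 and 647. None of the regions passed edgeR or DESeq2, which gave no adjusted p at several of them, such as that of H2ac11, and 3 had an unadjusted p under 0.05. Starts of H2ac12 and H2bc12 were called in both 20% O2 libraries and in neither 4% O2 library. Histone genes are near-identical copies, so reads may be shared among them, and no source used here says how the authors placed such reads.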
